A study of Mus musculus with 6 samples.

Results

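Integrins are cell surface receptors made of an alpha chain paired with a beta chain, and the pair formed decides which ligand a cell can hold on to. On T cells the Itgal chain with Itgb2 binds ICAM molecules, the Itga4 chain with Itgb1 or Itgb7 binds VCAM-1, fibronectin or the gut addressin MAdCAM-1, and the Itgae chain (CD103) with Itgb7 binds E-cadherin on epithelium. The Itgav chain with Itgb8 releases active TGF-β from its latent complex, a step for which regulatory T (Treg) cells are known.

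The 10 integrin subunits described here were the alpha chains Itgae, Itgav, Itga4, Itgal and Itga6 and the beta chains Itgb1, Itgb2, Itgb3, Itgb7 and Itgb8, taken by gene symbol from the 24421 genes of the count matrix. RNA sequencing had been carried out on CD4+YFP+ Treg cells sorted from spleens of C57BL/6 female mice of 8 to 11 weeks, with 3 libraries per group and 1 mouse per library. WT mice were Foxp3Cre, and KO mice were Foxp3Cre miR-142fl/fl, so both groups carried a YFP-Cre fusion made from the Foxp3 locus, and loss of miR-142 was limited to cells that had expressed Foxp3. KO mice develop systemic autoimmunity, so KO cells came from a different tissue environment as well as a different genotype, and the 2 cannot be told apart here.

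Library totals lay between 13883069 and 24042994 counts. The precursor gene Mir142b, read from the miR-142 locus, lay between 4.14 and 9.05 CPM (a count scaled by the TMM-normalised library size, the unit of every level here) in WT and between 0.342 and 0.389 CPM in KO libraries, while the entry Mir142 itself had a count of 0 in all 6 libraries. All 8 Treg markers were detected, with Foxp3 at 536 to 595 CPM in WT and 642 to 749 CPM in KO libraries. Of the 8, all KO libraries lay above WT for 3 and below WT for 2, beside 22.2% and 18.8% of all genes tested. KO replicate 1 stood apart: its correlation with the other 5 libraries on log2 CPM was 0.914 to 0.960, against 0.982 between KO replicates 2 and 3. It held 1027 CPM of 14 neutrophil markers, 2761 CPM of 13 monocyte and macrophage markers, 21.5 CPM of 6 dendritic cell markers and 249.9 CPM of 9 B cell markers, against at most 29.6, 129, 1.11 and 22.0 CPM in any other library. Of the 14 neutrophil markers 12 were highest in it, and 6 were at 0 in every WT library. KO replicates 2 and 3 also lay above WT for neutrophil markers (11.7 and 29.6 CPM, WT up to 5.48). The same held for monocyte and macrophage markers (129 and 69.3 CPM, WT up to 55.1), but not for dendritic or B cell markers. The 6 CD8 and NK cell markers summed to 20.1 to 24.3 CPM in WT and 44.5 to 76.7 CPM in KO libraries. They did not all move the same way. Of the 3 that passed the filter on low counts, all KO libraries lay above WT for 1 and below WT for 1. The 6 erythroid markers summed to 1.68 to 2.53 CPM in WT and 8.14 to 46.1 CPM in KO libraries. The part of these markers in the results was not tested. In bulk samples, fewer expressing cells and less RNA per cell cannot be told apart.

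miR-142 is an abundant microRNA of blood cells. A microRNA pairs through its seed, bases 2 to 8, with sites in the 3′ UTR of a messenger RNA and lowers that RNA's stability or translation. Its 3p strand occurs with a start shifted by 1 base, which gives 2 seeds, and the 5p strand has a seed of its own. The mature sequences from RefSeq, with the seed in capitals, lie on chromosome 11 in GRCm38 (3p.1 at chr11:87756903-87756925, + strand):
miR-142-3p.1: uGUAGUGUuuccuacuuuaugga
miR-142-3p.2: gUAGUGUUuccuacuuuaugga
miR-142-5p: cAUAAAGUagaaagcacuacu

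The longest annotated 3′ UTR of each gene (GENCODE M21, sense strand) was searched for the 7-base sites ACACTAC or CACTACA (3p.1), AACACTA or ACACTAA (3p.2) and ACTTTAT or CTTTATA (5p). The 3p.1 and 3p.2 sites can overlap by a shift of 1 base. A 3p site was found in 3 of the 10 subunits, Itgav, Itgb8 and Itga4, beside 22.7% of 10786 tested genes with a 3′ UTR. A 5p site was found in 3 subunits, Itgb8, Itgb1 and Itga4, beside 23.5% of the same genes. The median UTR was 1419 bases over the 10 subunits and 1186 bases over the tested genes. No such letters occurred in the UTRs of Itgae (306 bases), Itgb7 (165 bases), Itgal, Itgb2 and Itgb3. The following sites, in capitals within their UTR, are those of the 3 subunits with 3p sites, of which 1 rose, 1 fell and 1 was not called in KO cells. They are in order the 8-base and the 7-base 3p site of Itgav (chr2:83803779-83803786 and chr2:83803534-83803540, + strand), the 8-base 3p.2 site of Itga4 (chr2:79326805-79326812, + strand), the first 3p.2 and first 3p.1 site of Itgb8 (chr12:119161432-119161438 and chr12:119160549-119160555, − strand) and its 8-base 5p site (chr12:119158711-119158718, − strand), all in GRCm38:
Itgav 3p.1: aggtacacattACACTACAgttgacttcat
Itgav 3p.2: ttacttcgcctACACTAAcgtgtgttctt
Itga4 3p.2: gagtgaagcaaAACACTAAagctctggatg
Itgb8 3p.2: gcatgtcgatgAACACTAgcctctattag
Itgb8 3p.1: tcccatatttcCACTACAtaagcaactat
Itgb8 5p: gaactttactgACTTTATAcatataaatgt

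The Itgav sites lay 199 and 444 bases after the stop codon in a UTR of 3581 bases. The Itga4 8-base site lay 190 bases after the stop codon, and the UTR of 6508 bases held 3 further 3p sites and 5 sites for 5p. The Itgb8 UTR of 5095 bases held 4 sites for 3p, of which a 3p.1 and a 3p.2 site overlapped, and 3 sites for 5p.

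To compare miR-142–deficient with WT Treg cells, all 11658 genes above 1 CPM in at least 3 libraries were fitted in edgeR and tested by quasi-likelihood (QLF), and genes with a false discovery rate (FDR) under 0.05 were called. All 10 subunits passed the filter on low counts. Of these, 3 rose in KO cells (Itgae, Itgav and Itgb7), 1 fell (Itgb8) and 6 were not called. Over all genes tested, 18.8% were called, 11.6% higher and 7.27% lower. The median log2 fold change was −0.11 over the 10 subunits and 0.02 over all genes tested. With a count as small as 4 of 10, the share is a description of these genes. The QLF, likelihood ratio and exact tests together called the same number, 4, beside 17.1% of all genes.

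**Figure D1:**
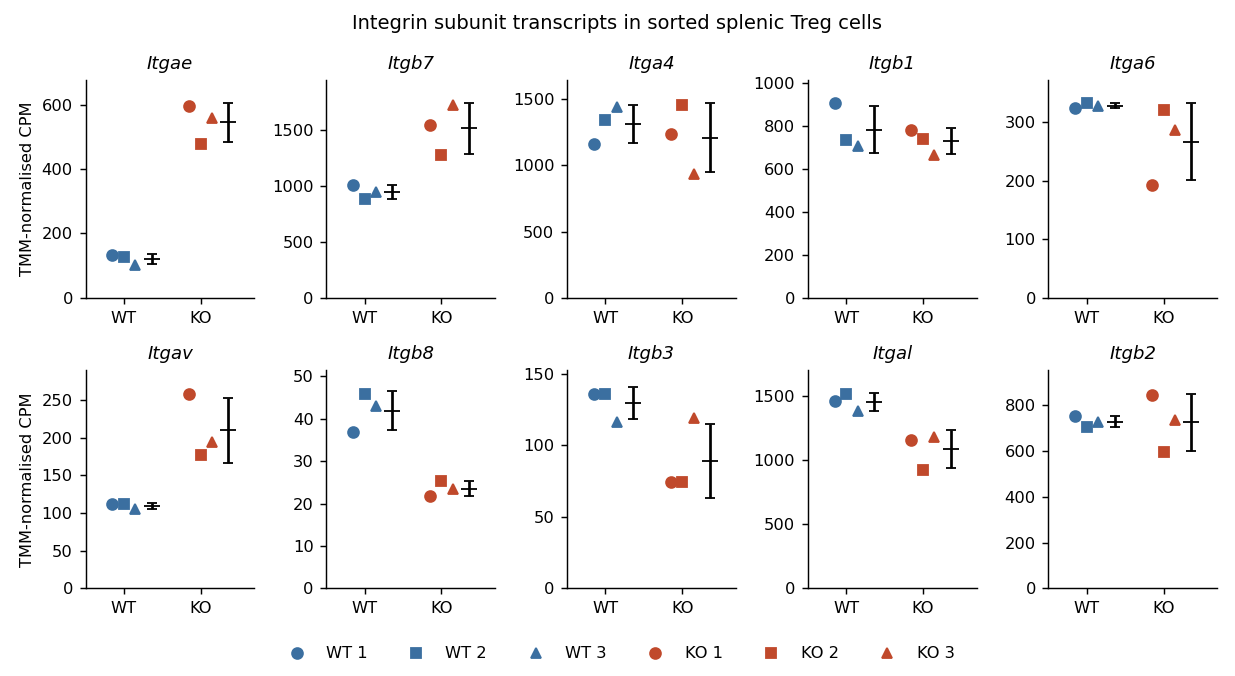
TMM-normalised CPM of the 10 integrin subunits in each library, with the mean and SD of each group (n = 3) beside the points; each panel has its own scale from 0. All KO libraries lie above all WT libraries for Itgae, Itgav and Itgb7 and below them for Itgb8, Itgal and Itga6.

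Itgae had the largest change among the 10. Its level was 133, 127 and 102 CPM in WT replicates 1, 2 and 3 and 597, 479 and 558 CPM in KO replicates 1, 2 and 3. The groups did not overlap, and the KO libraries lay far above all WT libraries. The mean rose from 121 ± 16.3 to 544 ± 60.0 CPM (SD, n = 3 each), a 4.52-fold increase (log2 fold change 2.18 ± 0.14 SE, 95% confidence interval 1.85 to 2.50, QLF FDR 0.000508). Without KO replicate 1 the fold was 4.25 (FDR 0.000144). Itgae lies at chr11:73090583-73147446 on the + strand.

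Its partner Itgb7 also rose. It stood at 1010, 889 and 950 CPM in WT and at 1545, 1279 and 1728 CPM in KO libraries, with no overlap between groups. The increase was 1.60-fold (log2 0.68 ± 0.13 SE, QLF FDR 0.0147). Leaving out any WT library ended the call, with FDR values of 0.051, 0.076 and 0.0654 and a log2 fold change of 0.63 to 0.70, whereas the call held without KO replicate 1 (FDR 0.0193).

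Itga4, the other alpha chain that pairs with Itgb7, was not called. Its levels were 1160, 1339 and 1441 CPM in WT and 1234, 1456 and 935 CPM in KO libraries. The groups overlapped, the log2 difference was −0.12 with a 95% confidence interval of −0.53 to 0.29 (QLF FDR 0.666), and it turned positive (0.02) without KO replicate 3. Exons of Itga4 share 1124 bases (8.04%) with Cerkl on the opposite strand, and the counts took no account of strand.

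Itgav, the alpha chain common to several TGF-β–binding integrins, rose from 111, 113 and 105 CPM in WT to 259, 177 and 195 CPM in KO libraries. The WT libraries were tightly grouped and all lay below the lowest KO library. The increase was 1.91-fold (log2 0.94 ± 0.15 SE, QLF FDR 0.00658) and 1.67-fold without KO replicate 1 (FDR 0.00208), which held the highest value. Exons of Itgav share 634 bases (5.90%) with the opposite-strand transcript Gm13684.

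Itgb8 moved the other way. It read 37.0, 46.0 and 42.9 CPM in WT and 21.8, 25.3 and 23.5 CPM in KO libraries. The groups did not overlap, and the mean fell from 41.9 ± 4.58 to 23.5 ± 1.76 CPM (log2 −0.84 ± 0.12 SE, QLF FDR 0.00514). The level in WT was 1.78-fold that in KO, and 1.74-fold without KO replicate 1 (FDR 0.00797).

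Itgb3, a further partner of Itgav that is best known from platelets, was at 136, 136 and 117 CPM in WT and at 74.3, 74.2 and 119 CPM in KO libraries. KO replicate 3 lay within the WT range and the other KO libraries below it, and the log2 difference of −0.54 was not called (95% confidence interval −0.99 to −0.09, QLF FDR 0.093). It was called with DESeq2 (log2 −0.55, FDR 0.0317). Without KO replicate 3 it was −0.82 (FDR 0.0114). The 11 platelet markers summed to 5.14 to 6.53 CPM in WT and 14.3 to 21.3 CPM in KO libraries, and the platelet marker Pf4 was at 0 in every WT library.

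Itgal, the alpha chain of the main leukocyte ICAM receptor, was at 1462, 1517 and 1378 CPM in WT and at 1159, 919 and 1180 CPM in KO libraries. All KO libraries lay below all WT libraries, but the log2 difference of −0.42 ± 0.12 SE missed the threshold (QLF FDR 0.0541). It was called when scaled by library size alone (FDR 0.0386), with DESeq2 (0.00584), with limma-voom (0.0455) and without KO replicate 1 (0.0421). It was not called with RLE scaling (FDR 0.0536), without a filter (0.0830) or with a replicate block (0.0942). Leaving out any library other than KO replicate 1 also gave no call (FDR 0.0671 to 0.177).

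Its partner Itgb2, the beta chain that Itgal shares with Itgam and Itgax, was at 753, 707 and 726 CPM in WT and at 847, 598 and 736 CPM in KO libraries. The KO libraries lay on both sides of WT, with the highest value in KO replicate 1, and the log2 difference was 0.00 in size (95% confidence interval −0.32 to 0.31, QLF FDR 0.989). Without KO replicate 1 it was −0.14 (FDR 0.450), and without KO replicate 2 it was 0.13.

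Itgb1, the beta chain of most matrix receptors, was at 906, 734 and 708 CPM in WT and at 782, 740 and 664 CPM in KO libraries. The ranges overlapped, with a log2 difference of −0.10 (95% confidence interval −0.40 to 0.19, QLF FDR 0.606).

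Itga6, which pairs with Itgb1 to bind laminin, was at 323, 332 and 327 CPM in WT and at 193, 320 and 286 CPM in KO libraries. The lowest value was that of KO replicate 1. The log2 difference was −0.30 (95% confidence interval −0.71 to 0.11, QLF FDR 0.270), and −0.13 without that library.

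In all, the WT and KO libraries did not overlap for 6 of the 10 subunits, 3 above and 3 below, beside 41% of all genes tested (22.2% above and 18.8% below).

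**Figure D2:**
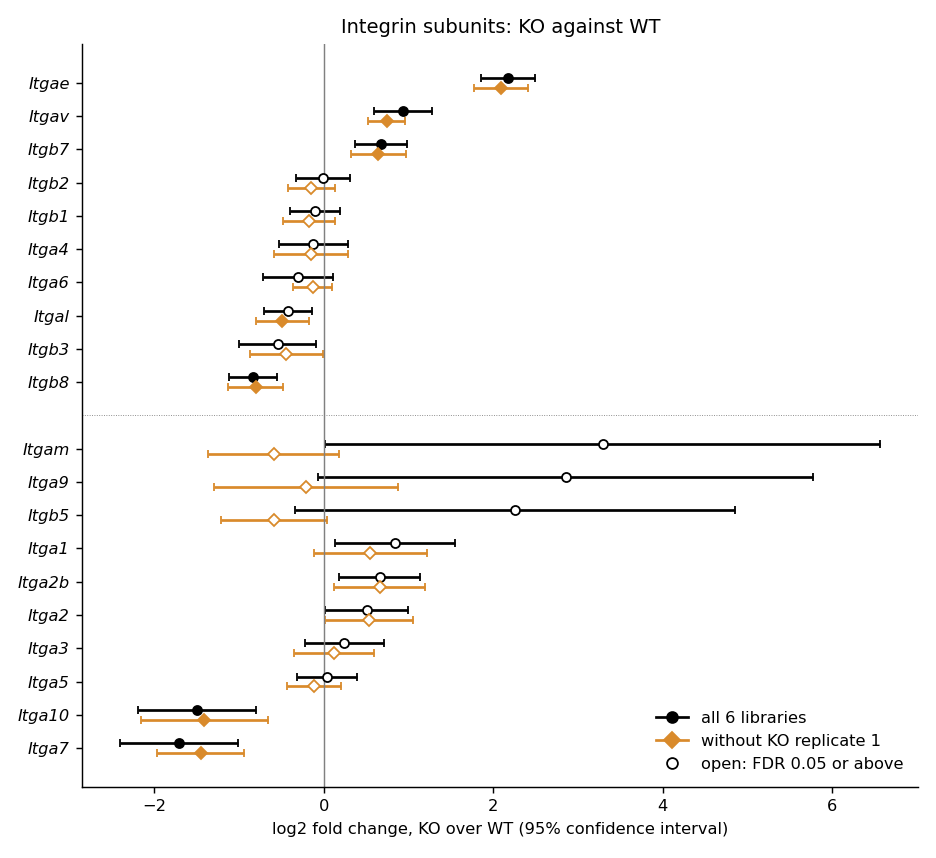
Log2 fold change (KO over WT) with its 95% confidence interval for the 10 subunits (top) and the 10 other integrin subunits that passed the filter (bottom), from all 6 libraries (black) and without KO replicate 1 (orange); filled symbols have an FDR under 0.05. Itgae lies farthest to the right among the 10 subunits of the top part at 2.18. In the bottom part, the intervals of Itgam, Itga9 and Itgb5 are far wider with KO replicate 1 included than without it.

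Levels of different genes were compared as normalised CPM per kb of exon. In WT cells the order was Itgb7 (343 ± 21.7, SD, n = 3), Itgb2 (239 ± 7.65), Itgal (221 ± 10.7), Itgb1 (192 ± 26.3), Itga4 (94.0 ± 10.2), Itga6 (36.3 ± 0.490), Itgae (26.3 ± 3.55), Itgb3 (22.0 ± 1.90), Itgav (10.2 ± 0.375) and Itgb8 (3.79 ± 0.414). The ranges of Itgal and Itgb1 overlapped, as did those of Itgae and Itgb3, and the other neighbours were separate. Itgb7 stood at the 99.7th percentile in WT, of the 11237 genes tested that had an exon length, and Itgb8 at the 32.7th. In KO cells Itgae moved from rank 7 to rank 5, at 119 ± 13.1 CPM per kb, above Itga4 (86.5 ± 18.7) with no overlap between their libraries. When the longest transcript was used in place of all exons, Itgal and Itgb2 exchanged ranks 2 and 3 in WT, and the KO ranges of Itgae and Itga4 overlapped.

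Itgae took a larger part of the alpha chain transcripts in KO cells. Its share of the 5 alpha chains, per kb, was 7.62%, 6.88% and 5.84% in WT and 29.6%, 26.1% and 29.1% in KO libraries. Itgal, the most abundant alpha chain, held 57.0% ± 1.76 of them in WT and 39.3% ± 4.07 in KO cells. Among the 5 beta chains Itgb7 held 42.9% ± 1.01 in WT and 55.7% ± 3.23 in KO cells, while Itgb8 went from 0.478% ± 0.0811 to 0.220% ± 0.0421. Shares within a chain sum to 100%, so a larger share of one subunit lowers the others.

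**Figure D3:**
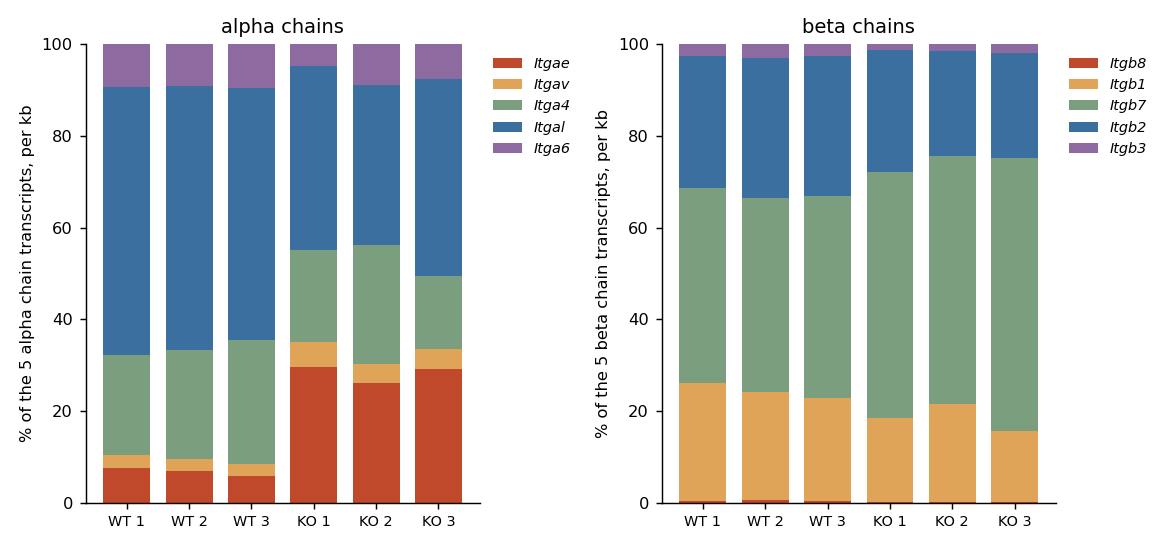
Share of each subunit among the 5 alpha chains (left) and the 5 beta chains (right), in percent of their summed normalised CPM per kb of exon, in each library. Itgae makes up 5.84% to 7.62% of the alpha chains in WT and 26.1% to 29.6% in KO libraries.

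To ask whether partner chains moved together, the ratio of alpha to beta transcripts per kb was taken within each library for 8 pairs known to form a receptor. With 3 libraries against 3, the exact two-sided permutation test cannot give a p under 0.1, so no ratio could pass 0.05. For 6 of the 8 pairs the groups did not overlap and p was 0.1, adjusted to 0.133 over the pairs. Each of these 6 holds a chain whose own levels did not overlap between groups. So does the pair of Itga6 and Itgb1, through Itga6, although its ratio overlapped. Of all single genes tested, 41% did not overlap, and no such share was taken over other gene pairs. The tests of the 8 pairs are not independent, since pairs share chains.

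The Itgae to Itgb7 ratio was 0.0796, 0.0860 and 0.0650 in WT and 0.233, 0.226 and 0.195 in KO libraries. It was thus 2.85-fold higher in KO cells (log2 1.51), and Itgb7 remained the more abundant chain in every library. The Itga4 to Itgb7 ratio was 0.228, 0.298 and 0.301 in WT and 0.158, 0.226 and 0.107 in KO libraries, a log2 difference of −0.80 across groups that came close to each other at KO replicate 2.

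The Itgav to Itgb8 ratio had the largest difference of the 8. It was 3.10, 2.52 and 2.52 in WT and 12.2, 7.19 and 8.50 in KO libraries, 3.36-fold higher. The Itgav to Itgb3 ratio was 0.451, 0.455 and 0.496 in WT and 1.91, 1.31 and 0.899 in KO libraries. In WT cells Itgb3 transcripts outnumbered Itgav transcripts in every library, and in KO cells they did so in KO replicate 3 only. That last point depended on the exon length used. By the longest transcript, Itgb3 was at 20.6 and Itgav at 27.6 CPM per kb in KO replicate 3.

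The Itgav to Itgb1 ratio was 2.02-fold higher in KO cells (log2 1.01). The Itgal to Itgb2 ratio was 0.902, 0.998 and 0.882 in WT and 0.636, 0.714 and 0.745 in KO libraries, a log2 difference of −0.41 that had the same sign whichever library was left out (−0.46 to −0.34). The Itga4 to Itgb1 and Itga6 to Itgb1 ratios overlapped between groups, with log2 differences of −0.04 (exact permutation p = 0.9) and −0.23 (exact permutation p = 0.5).

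**Figure D4:**
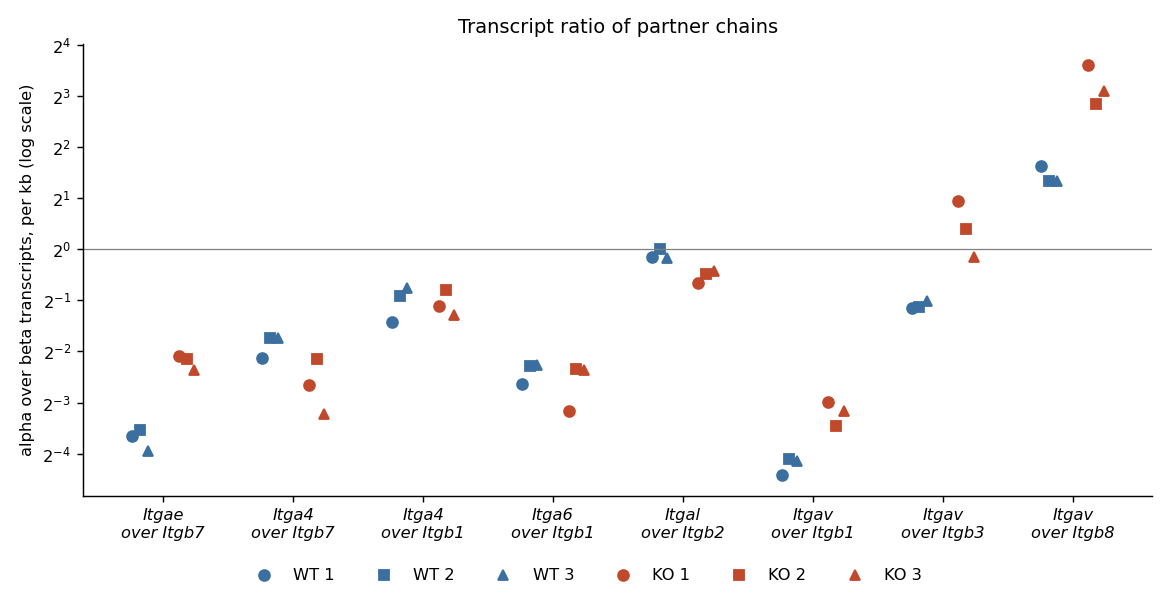
Ratio of alpha to beta chain transcripts per kb of exon (log2 axis) in each library for 8 partner pairs, with WT in blue and KO in red. The ratios of Itgav to Itgb8 lie between 2.52 and 3.10 in WT and between 7.19 and 12.2 in KO libraries.

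Of the 17 other integrin subunits, 10 passed the filter, 0 rose and 2 fell in edgeR's QLF test (beside 11.6% and 7.27% of all genes). DESeq2 and limma-voom also called 0 higher, and 4 were higher at an unadjusted p under 0.05. The 2 that fell are known best from tissues other than blood. Itga7, a laminin receptor chain of muscle, was at 9.42, 7.38 and 8.91 CPM in WT and at 1.61, 3.18 and 3.15 CPM in KO libraries (log2 −1.70 ± 0.30 SE, QLF FDR 0.0101). Itga10, a collagen receptor chain of cartilage, was at 5.73, 9.92 and 7.86 CPM in WT and at 2.39, 2.27 and 3.70 CPM in KO libraries (log2 −1.49 ± 0.30 SE, QLF FDR 0.0160). The Itga10 call was lost without WT replicate 2 (FDR 0.0714) or WT replicate 3 (FDR 0.0600), and 33.5% of its exon bases are shared with the same-strand gene model Gm42957.

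For 3 of the 10 other subunits tested, collagen and fibrinogen receptor chains, all KO libraries lay above WT without a call. Over all genes tested, 22.2% lay above WT in this way, called or not. Itga1 was at 1.54 to 1.83 CPM in WT and 2.04 to 4.05 in KO libraries (QLF FDR 0.0920), Itga2 at 7.86 to 12.1 and 12.5 to 14.6 (0.131), and Itga2b at 3.43 to 3.48 and 4.72 to 6.36 (0.0626). Itga3, at a log2 difference of 0.25 (QLF FDR 0.419), and Itga5, the classical fibronectin receptor chain, at 0.04 (QLF FDR 0.864), overlapped between groups, and Itga5 was at −0.12 without KO replicate 1 and −0.03 when scaled by library size alone.

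The subunits of myeloid cells were by far the highest in KO replicate 1. Itgax (CD11c) was at 126 CPM in that library and at no more than 0.227 CPM in any other. Itgam (CD11b) was at 49.6 CPM there and at 1.16 to 2.10 CPM in the other 5 libraries. Itgad was at 38.7 CPM there, at 3.18 and 0.411 CPM in KO replicates 2 and 3 and at 0.164 to 0.332 CPM in WT libraries. Itgam, Itgax and Itgad lie next to each other on chromosome 7, as part of a cluster near Itgal, and 68.7% of the exon bases of Itgam are shared with the gene model Gm49368.

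Itgb5 was at 50.3 CPM in KO replicate 1 and at 2.60 to 4.63 CPM elsewhere, Itga9 at 98.4 and 2.33 to 7.03 CPM, and the neutrophil-type Itgb2l had 8.38 CPM there and a count of 0 in every other library. Itgax, Itgad and Itgb2l did not pass the filter. For the 3 that did, none of which was called, the log2 fold change went from 3.29 to −0.59 for Itgam, from 2.85 to −0.20 for Itga9 and from 2.26 to −0.59 for Itgb5 when that library was left out. Among the highest markers of other cells in KO replicate 1 were Csf1r (640 CPM), Lyz2 (371 CPM) and S100a9 (247 CPM), which were at no more than 12.6, 2.19 and 1.23 CPM in any other library. Among the 10 subunits KO replicate 1 was 1.39 times the mean of the other KO libraries for Itgav, 1.27 times for Itgb2 and 1.15, 1.03 and 1.10 times for Itgae, Itgb7 and Itgal, and the other 5 lay between 0.636 and 1.11 times. The remaining subunits below the filter, Itga8, Itga11, Itgb4 and Itgb6, did not exceed 1.28 CPM in any library.

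**Figure D5:**
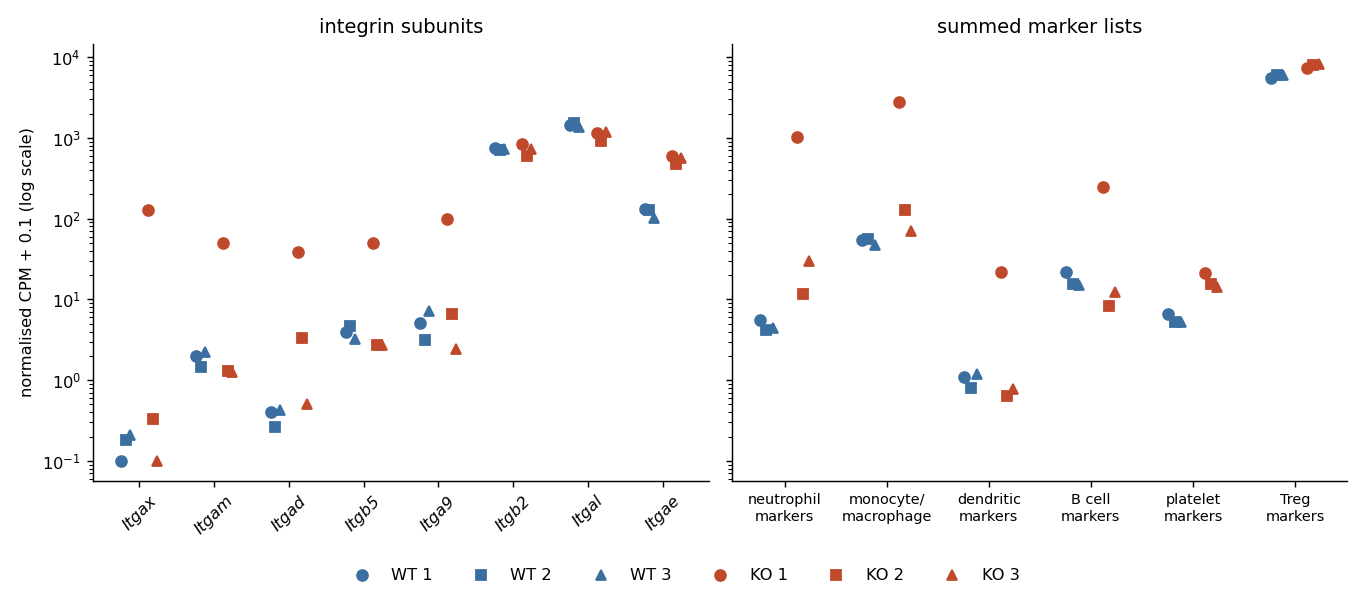
Normalised CPM plus 0.1 on a log axis for 8 integrin subunits (left) and the summed CPM of marker lists of other cell types and of Treg cells (right) in each library. KO replicate 1 (red circles) lies far above the other libraries for Itgax, Itgam, Itgad, Itgb5 and Itga9 and for the neutrophil, monocyte/macrophage, dendritic and B cell lists. For Itgb2 and Itgae it is the highest library by a smaller margin, and for Itgal it lies between the other KO libraries.

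Genes that work with integrins were described from lists chosen with earlier results of these data known. Of 20 ligand genes, 12 passed the filter, 6 rose and 1 fell (50% and 8.33% of those tested, beside 11.6% and 7.27% of all genes), and their median log2 fold change was 1.05. Without WT replicate 1, 2 or 3 the number called was 3, 3 and 4. Lamc1, a laminin chain, rose 2.54-fold (81.7 to 95.02 CPM in WT, 200 to 257 CPM in KO, QLF FDR 0.00110) and Lama5, another laminin chain, rose 5.43-fold from a low level of 3.49 to 6.68 CPM (QLF FDR 0.00279). Fn1 (fibronectin) was at 0.443 to 0.697 CPM in WT and at 44.3, 4.16 and 19.2 CPM in KO libraries (QLF FDR 0.00837), and did not pass the filter when any 1 KO library was left out. It passed the filter only through the KO libraries, where it was high, so it adds no weight to the count of 6 that rose. Tgfb3 rose 2.73-fold (QLF FDR 0.0227), a call lost without any 1 WT library (FDR 0.0728 to 0.102). Vcam1, a ligand of Itga4 that lay outside the naming rule and was chosen after its values were seen, was at 1.60 to 2.28 CPM in WT and at 406, 35.1 and 11.2 CPM in KO libraries (log2 6.23, QLF FDR 0.0251). Without KO replicate 1 its log2 fold change was 3.50 (FDR 0.00221), and the call was lost with limma-voom (FDR 0.185) and without WT replicate 1, 2 or 3 (FDR 0.0899, 0.107 and 0.0931). Fn1 and Vcam1 were highest in KO replicate 1, with its markers of other cells.

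Lrrc32 (GARP), which holds latent TGF-β on Treg cells and was also chosen after its values were seen, rose 1.39-fold (342 to 469 CPM in WT, 541 to 543 CPM in KO, QLF FDR 0.0443). The call was lost without 5 of the 6 libraries in turn (FDR up to 0.164). It was also lost in 3 of the 7 other fits (FDR up to 0.0723). Tgfb1, whose product Itgav with Itgb8 activates, was at 233 to 258 CPM in WT and 223 to 317 CPM in KO libraries and was not called (QLF FDR 0.420). Icam2, a ligand of Itgal with Itgb2, fell from 47.1 to 54.2 CPM in WT to 21.4 to 37.4 CPM in KO libraries (log2 −0.72, QLF FDR 0.0422). That call was lost without a filter (FDR 0.0552), with a replicate block (0.0601) and without WT replicate 1, 2 or 3 (0.0899, 0.149 and 0.106). Icam1 (FDR 0.116) and Mfge8 (FDR 0.0824) were not called.

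Of 22 regulators of integrin activation, 19 passed the filter, 2 rose and 4 fell, beside 11.6% and 7.27% of all genes. The 4 that fell were Rasgrp2 (log2 −0.63, QLF FDR 0.0137), an activator of the small GTPase Rap1, Apbb1ip (−0.51, FDR 0.0104), the Rap1 effector RIAM, Skap1 (−0.51, FDR 0.0180), an adaptor downstream of the T cell receptor, and Sipa1 (−0.64, FDR 0.0114), which switches Rap1 off. Rasgrp2, Apbb1ip and Skap1 thus promote activation and Sipa1 opposes it. The 2 that rose were Fermt3 (kindlin-3, log2 0.44, FDR 0.0219), which binds beta chain tails and promotes activation, and Dok1 (log2 0.88, FDR 0.00710), which competes with talin for them. The Fermt3 call was lost with library size alone (FDR 0.0534) and without WT replicate 1, 2 or 3 or KO replicate 3 (FDR 0.052 to 0.103). The 4 that fell each lost the call without 1 or more of the WT libraries: Rasgrp2 (FDR up to 0.0612) and Apbb1ip (up to 0.056) without WT replicate 2 or 3, Skap1 (up to 0.0673) without WT replicate 1 or 3, and Sipa1 (0.0599) without WT replicate 2. Without WT replicate 1, 2 or 3 the number called on the list was 4, 2 and 2. Talin itself, Tln1, was at 1422 to 1531 CPM in WT and 1121 to 1439 CPM in KO libraries and was not called (FDR 0.191).

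Of 24 genes of adhesion signalling, 21 passed the filter, 3 rose and 2 fell (14.3% and 9.52%, near the 11.6% and 7.27% of all genes). Without WT replicate 1, 2 or 3 the number called was 3, 2 and 2. The adaptor Crk rose 1.80-fold (QLF FDR 0.00286) and the kinase Src 1.88-fold (FDR 0.00551). The kinase Syk was at 2.82 to 3.89 CPM in WT and at 166, 8.25 and 13.2 CPM in KO libraries (log2 4.23, FDR 0.0448), with its highest value in KO replicate 1. Without that library its log2 fold change was 1.67 (FDR 0.00509), and the call was lost with limma-voom (FDR 0.199), without a filter (0.0578), with a replicate block (0.0749) and without WT replicate 1, 2 or 3 (0.134, 0.146 and 0.143). Fyn (log2 −0.39, FDR 0.0397) and Git2 (log2 −0.42, FDR 0.0108) fell. The Fyn call was lost without a filter (FDR 0.0591), with a replicate block (0.0628) and without any 1 library other than KO replicate 2 (0.0665 to 0.145), and that of Git2 without WT replicate 2 (0.0648) or 3 (0.0512).

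Of 10 membrane partners, mostly tetraspanins, 9 passed the filter, 2 rose and 1 fell (22.2% and 11.1%, beside 11.6% and 7.27% of all genes). Cd151 (3.47-fold, QLF FDR 0.00385) and Cd47 (1.56-fold, FDR 0.00707) rose and Cd9 fell (log2 −0.48, FDR 0.0213). The Cd9 call was lost with a replicate block (FDR 0.0538) and without WT replicate 1, 2 or 3 or KO replicate 3 (0.0551 to 0.0915).

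Itgae is also used as a marker of effector-type Treg cells, so other genes of that state were read beside it. Of 14 such genes, Itgae left out, all passed the filter, 7 rose (50%, beside 11.6% of all genes) and 0 fell in the QLF test, with a median log2 fold change of 0.67. Without WT replicate 1, 2 or 3 the number that rose was 7, 4 and 4. DESeq2 and limma-voom also called 0 lower, and 0 were lower at an unadjusted p under 0.05. Klrg1 rose 5.60-fold (QLF FDR 0.00110), Tnfrsf9 1.98-fold (FDR 0.00264), Fgl2 5.94-fold (FDR 0.00625) and Gzmb 10.7-fold (FDR 0.00691). Without KO replicate 1 the log2 fold change of Gzmb went from 3.42 to 2.59 (FDR 0.000505) and that of Fgl2 from 2.57 to 2.03 (FDR 0.00107). That library was the highest for 11 of the 14, and without it 7 rose and 1, Cd44 (log2 −0.72), fell.

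Of 12 genes of resting-type Treg cells, 2 rose (16.7%, beside 11.6% of all genes), Satb1 (log2 0.74, FDR 0.0303) and Igfbp4 (log2 1.06, FDR 0.0161), and 0 fell in the QLF test, while DESeq2 and limma-voom each called 1 lower and 1 was lower at an unadjusted p under 0.05. This was Tcf7, which was at 983 to 1034 CPM in WT and at 377, 832 and 482 CPM in KO libraries (QLF FDR 0.0686). The counts changed with single libraries. Without WT replicate 1, 2 or 3 no call was left in the QLF test (Satb1 FDR 0.0701 to 0.109, Igfbp4 FDR 0.0631 to 0.0698). When KO replicate 1 was left out, 4 rose and 0 fell, and when KO replicate 2 was left out, 2 rose and 4 fell. The part of these genes' changes in that of Itgae was not tested.

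Set against the sites shown above, the 3 subunits with a 3p site were Itgav, which rose, Itgb8, which fell, and Itga4, which was not called. Of the 7 without a 3p site in the longest UTR, Itgae and Itgb7 rose and 5 were not called. The median log2 fold change was −0.12 over the 3 and −0.10 over the 7. Itga6 held a 3p.1 site only when all its annotated UTRs were searched. Among all 20 integrin subunits tested, 7 had a 3p site (35%, beside 22.7% of tested genes with a 3′ UTR). Of these 7, 1 rose and 1 fell, and of the 13 without a site 2 rose and 2 fell. Over all genes tested, 18.8% were called.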

How the data were processed

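CD4+YFP+ Treg cells were profiled in 3 WT and 3 KO mice. Per the study's methods, libraries were sequenced as single-end reads, mapped to mm10 (HISAT) and assigned to genes by featureCounts, ignoring strand. The submitters' processing notes also name CASAVA and edgeR, with versions not given in the sources used here. The deposited table holds raw counts per gene, with no normalization by the authors. Levels are counts divided by TMM-effective library size, in CPM, and per kb they use union exon lengths from GENCODE M21. edgeR 4.0.16 (QLF, TMM, CPM above 1 in at least 3 libraries) with Benjamini-Hochberg FDR was fitted over 11658 genes in R 4.3.3, after a test on simulated data. A count of 3 corresponded to 0.123 to 0.227 CPM. Partner ratios used a prior count of 0.5 and an exact permutation test. Alternatives were other scalings, DESeq2 1.42.0, limma-voom (limma 3.58.1), no filter, FDR under 0.01, a replicate block and leaving out each library. P-values measure the spread between mice. The subunits and gene lists were chosen with earlier results of these data known. Named were all 10 subunits, other integrin subunits past the filter, and per list up to 4 called genes per direction by p and up to 3 uncalled by level. No genome-wide set tests were run. The values of some single genes are left out.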

Additional observations from a re-analysis of the deposited data

How the results depend on the processing

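The calls of Itgae, Itgav and Itgb8 and their directions held in every alternative fit (FDR up to 0.0106) and without each library in turn (FDR up to 0.0387). The number of called subunits, 4, ranged from 3 to 5 when 1 library was left out and from 3 to 6 in the other fits. At an FDR under 0.01, which by construction calls fewer genes, 0 of the other integrin subunits, 3 ligands, 1 activation regulator, 2 adhesion signalling genes, 4 effector-type and 0 resting-type genes and 686 genes in all were called. DESeq2 called 4 resting-type genes. When 1 library was left out, the calls ranged from 1 to 3 for other integrin subunits, from 3 to 8 for ligands, from 2 to 8 for activation regulators, from 2 to 7 for adhesion signalling genes, from 4 to 8 for effector-type genes, from 0 to 6 for resting-type genes and from 691 to 2340 over all genes: 691 to 1022 without a WT library and 1511 to 2340 without a KO library. The cause was not tested.

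Changes of sign were confined to values that were not called. Without 1 library in turn, the log2 fold change ranged from −0.27 to 0.019 for Itga4, from −0.14 to 0.13 for Itgb2, from −0.12 to 0.13 for Itga5, from −0.20 to 3.39 for Itga9, from −0.59 to 3.85 for Itgam and from −0.59 to 2.77 for Itgb5, with the lowest value of Itgb2, Itga5, Itga9, Itgam and Itgb5 in the fit without KO replicate 1. The log2 difference ranged from −0.24 to 0.10 for the Itga4 to Itgb1 ratio and from −0.37 to 0.035 for the Itga6 to Itgb1 ratio. With library size alone, which moved the median of all genes by −0.08, Itga5 was at −0.034. The causes were not tested.

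Same-numbered WT and KO libraries did not deviate together (correlations 0.07, −0.01 and −0.19), so the numbers were not read as pairs, and not every sample correlated best with its own number. With a replicate block 1606 genes were called, against 2197, among them 4 of the 10 subunits and 3 adhesion signalling genes. For the partner ratios, pairing leaves the mean difference as it is by construction, and a sign-flip p cannot go below 0.25 for 3 pairs.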
